A study of Homo sapiens with 6 samples.

Results

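The 36 genes described here encode the machinery that burns fatty acids in mitochondria and peroxisomes, and they were examined in U251 cells, a human glioblastoma line, with and without TNF-α. They were chosen by name, for their known place in the pathway, but with earlier results of these data known. They are 36 of 58735 genes in the deposited table. Their roles divide them into 6 carnitine shuttle genes, 6 acyl-CoA dehydrogenases, 6 enzymes of the later mitochondrial steps, 4 auxiliary enzymes for double bonds, 3 genes of the electron transfer flavoprotein route, 10 peroxisomal genes and 1 transcriptional coactivator.

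The study asked how TNF-α, an inflammatory cytokine, alters gene expression in glioblastoma cells, including genes of lipid metabolism. All cells were of the U251 line, grown in high-glucose medium with fetal bovine serum. The control group, NC, received sterile deionized water (n = 3), and the TNF-α group received recombinant human TNF-α at 10 ng/mL (n = 3), in both cases for 24 h. Both groups carry no further alteration in the labels, and both come from a single established line cultured alone, without the immune cells that release TNF-α in a tumor. Poly(A) RNA was sequenced, and values are FPKM, that is, fragments per unit of exonic length, scaled to library size.

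Long-chain fatty acids enter mitochondria as carnitine esters. CPT1 enzymes form the ester on the outer membrane, a translocase carries it inside, and CPT2 turns it back into an acyl-CoA. Each round of β-oxidation then removes a short acetyl unit through a dehydrogenation, a hydration, a second dehydrogenation and a thiolysis, with the electrons of the opening step passing through the electron transfer flavoprotein to the respiratory chain. Peroxisomes shorten very-long-chain and branched fatty acids by a similar cycle and hand the products on as carnitine esters. In brain, astrocytes are regarded as the main site of fatty acid oxidation.

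The libraries held 31992167 to 37897044 reads in genes, so a tested member had at least 137 reads in every library. TNF-α replicates 2 and 3 stood apart from the other 4 libraries. The first principal component of log2(FPKM + 1) over all genes tested carried 88.4% of the variance, with these libraries at 69.5 and 55.2 and the others between -34.8 and -27.5. In the deposited FPKM, the library size divided by was 0.693 and 0.759 of the reads in genes in these libraries, against 0.925 to 0.959 in the others, which raises every gene alike there. Their FPKM values summed to 463340 and 408175, against 256373 to 266716 in the other 4 libraries. The labels name no batch, so this difference and the treatment cannot be told apart in those libraries. Results below are therefore also given for each TNF-α library. Of 6 astroglial markers fixed for the check of the line, 5 reached 1 FPKM, with a summed level of 438 to 485 FPKM in NC and 535 to 1072 FPKM in TNF-α, most of it from VIM, the intermediate filament vimentin. GFAP, the astrocyte filament, went the other way, with 7.10 to 9.47 FPKM in NC and 1.58 to 2.60 FPKM in TNF-α, and SOX2 had 58.9 to 66.3 FPKM in NC and 57.8, 22.6 and 30.4 FPKM in TNF-α. S100B, a defining astrocyte marker, was at or near 0. Of markers of other cell types, 2 of 3 neuronal markers (SYT1 and SNAP25), 1 of 4 immune markers (CD14, in TNF-α replicates 2 and 3), 1 of 3 epithelial markers (KRT8, in the same libraries) and no oligodendrocyte or endothelial marker reached 1 FPKM in any library. The summed neuronal markers were 4.45 to 4.82 FPKM in NC and 1.96 to 4.50 FPKM in TNF-α, the immune markers 0.660 to 0.880 and 0.528 to 1.66 FPKM, and PTPRC, the pan-leukocyte marker, was at 0 throughout. The part of these markers in the results was not tested.

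In untreated cells, the mitochondrial enzymes led the pathway. ECHS1, the enoyl-CoA hydratase for short chains, had the highest level at 85.7 ± 4.28 FPKM (SD, n = 3). ACADVL, the very-long-chain acyl-CoA dehydrogenase, followed at 48.1 ± 3.02 FPKM. HADHA, the subunit of the trifunctional protein that carries hydratase and dehydrogenase activity, stood at 36.9 ± 1.32 FPKM, and CPT1A, the rate-controlling carnitine palmitoyltransferase, at 28.8 ± 0.671 FPKM. The ranges of these 4 genes did not overlap one another. Below them, the levels of ETFA, ACADM, HADHB and ECI1 ran into each other between 17.0 and 14.8 FPKM on average. In all, 11 members had a mean of at least 10 FPKM in NC, 19 lay from 1 to 10 FPKM and 6 lay under 1 FPKM. Ordered by mean level, 22 of the 35 pairs of neighbours had overlapping ranges. FPKM divides by the whole exonic length of a gene, which understates genes whose expressed transcript is much shorter than that length. This may hold for HADH, CPT2 and ETFB, with exonic lengths of 12086, 10452 and 6526 bases. Which transcripts were expressed was not examined.

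**Figure D1:**
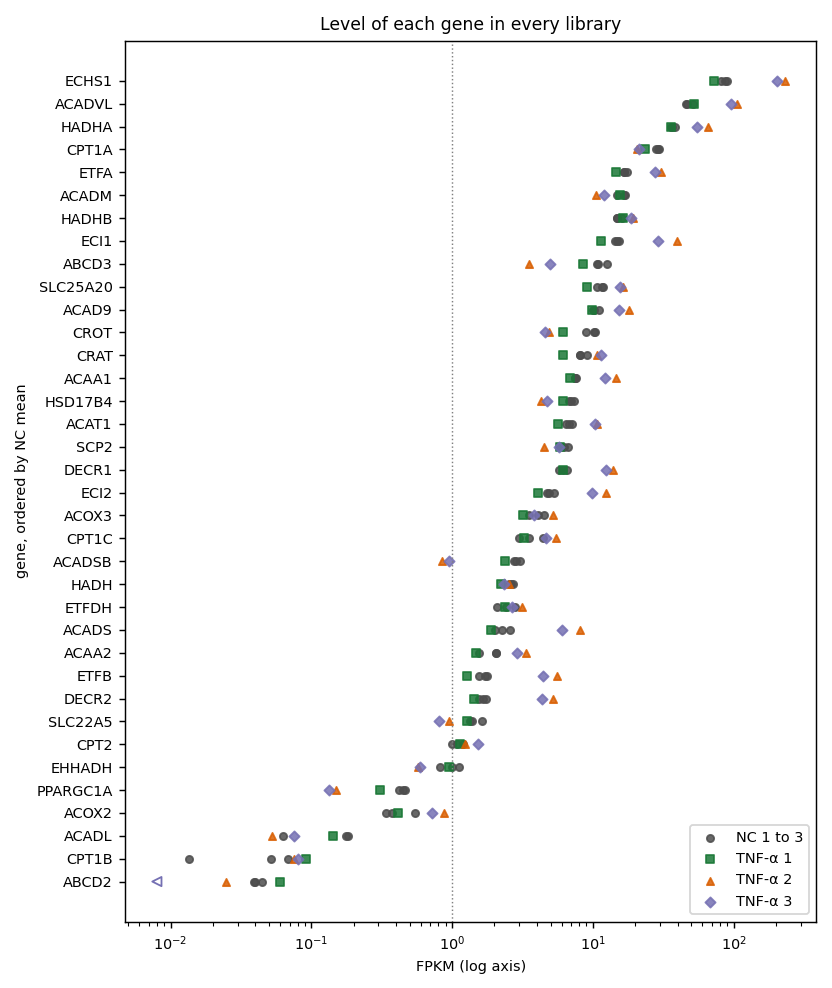
Level of each member in the 6 libraries, in FPKM on a log10 axis, with members ordered by their NC mean and 1 point per library; the dotted line is at 1 FPKM. ECHS1, ACADVL, HADHA and CPT1A hold the highest levels in NC, the TNF-α libraries 2 and 3 often lie away from replicate 1, and the open triangle at the left edge is ABCD2 in TNF-α replicate 3, which is listed at 0.

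The test covered 30 of the 36 members, those with at least 1 FPKM in at least 3 of the 6 libraries, among 12136 genes. None of the 30 passed an adjusted p of 0.05 in limma, against 1.01% of all genes tested, and their adjusted p-values ran from 0.0812 to 0.984. By limma-voom on reads recovered from the FPKM, 0 of 30 passed, against 0.634% of all genes. At an unadjusted p under 0.05 there were 6 of 30, against 24.2% of all genes tested. The values of the groups did not overlap for 10 of the 30 members, against a background of 30.1%. Of these 10, ACADVL and HADHB were higher with TNF-α, against 14.8% of genes in that direction. HADHB was lower on the TPM scale (-0.25), where the median of all genes was -0.42. CPT1A, SLC22A5, ACADSB, HADH, HSD17B4, SCP2, CROT and ABCD3 were lower, against 15.3%, though after a correction for GC content and length the group means of SLC22A5, HADH, HSD17B4 and SCP2 were higher. The share of non-overlapping members was thus close to the background, with 8 of the 10 on the lower side. In RNA from a whole culture, fewer cells that express a gene and less RNA of it per cell cannot be told apart.

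The TNF-α libraries did not move the pathway alike. In TNF-α replicate 1, 22 of the 30 tested members lay below every NC library, against 34.3% of all genes, and 2 lay above, against 30.5%. In replicates 2 and 3 together, 19 of 30 lay above every NC library, against 46.1% of all genes, and 9 lay below, against 40.8%. For 13 of 30, replicate 1 lay below and replicates 2 and 3 above every NC library, against 15.2% of all genes. These 13 were SLC25A20, ACADS, ACAD9, ECHS1, ACAA2, ACAT1, ECI1, ECI2, DECR2, ETFA, ETFB, ACAA1 and CRAT, and their TNF-α mean lies between libraries on opposite sides of NC. Over the tested members, the median log2 difference in FPKM + 1 between the groups was 0.23, and over all genes it was 0.04. With replicate 1 as the sole TNF-α library the members' median was -0.18 and that of all genes -0.01. Without it, the medians were 0.43 and 0.06, and 25 of 30 members passed, where 79.4% of all genes passed. By the group means of all libraries, 20 of 30 members were higher with TNF-α, against 53.0% of all genes. On the TPM scale, which sets every library to the same total, the median of all genes was -0.42 and that of the members -0.21. There 9 of 30 members were higher with TNF-α. After the correction for GC content and length 21 of 30 were higher, with a median of 0.14 for the members and -0.00056 for all genes. Relative to the median of all genes, 20 of 30 members were higher on the FPKM scale and 20 of 30 on the TPM scale. With replicate 1 as the sole TNF-α library, 4 of 30 were.

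**Figure D2:**
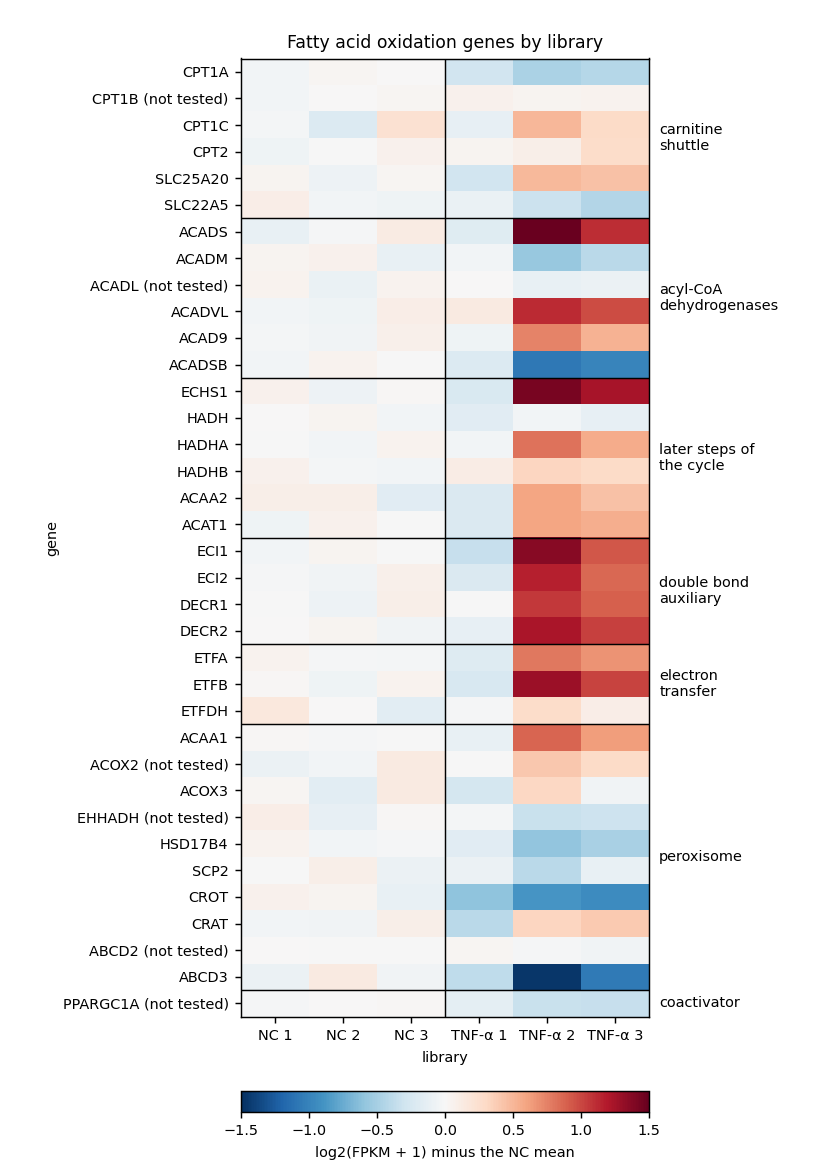
Log2(FPKM + 1) of all 36 members (rows) in each library (columns) minus the NC mean, with members grouped by role, colour giving the difference and the 6 untested members marked. TNF-α replicate 1 is mostly a little below NC, while replicates 2 and 3 are both above NC for 19 of the 30 tested members and both below for 9, CROT, ABCD3 and CPT1A among the latter.

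The gene with the smallest p of the pathway was CROT, the peroxisomal carnitine octanoyltransferase, which makes carnitine esters of the medium-chain products of peroxisomal oxidation for export to mitochondria. CROT (ENSG00000005469, GRCh38 chr7:87345681-87399795) had 10.3, 10.1 and 8.99 FPKM in NC and 6.09, 4.85 and 4.59 FPKM in TNF-α, from 1852, 1650 and 1438 reads and 975, 626 and 555 reads. Every TNF-α library was below every NC library, replicate 1 included. The log2 difference was -0.81 (SE 0.14, 95% interval -1.16 to -0.47), and the adjusted p in limma was 0.0812. Under quantile normalization the adjusted p was 0.0443, where 1.52% of all genes passed. Under the correction for GC content and length the difference was -0.60 with an adjusted p of 0.0289, where 2.04% passed. With replicate 1 as the sole TNF-α library, taken to vary like the NC libraries, the difference was -0.60 and the adjusted p 0.0196, where 6.03% passed. CROT was the 1 member to pass in each of these 3 settings. Its adjusted p ranged from 3.7e-05 to 0.389 over all settings tried, and its direction was the same in each.

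ABCD3 had the largest difference in log2(FPKM + 1), although by limma-voom on reads ACADSB was further from 0 (-1.48 against -1.37). ABCD3 encodes PMP70, an abundant transporter of the peroxisomal membrane that brings acyl-CoA into the organelle. ABCD3 (ENSG00000117528, GRCh38 chr1:94418455-94518666) had 10.6, 12.6 and 11.0 FPKM in NC and 8.49, 3.49 and 4.93 FPKM in TNF-α. The groups did not overlap, with replicate 1 nearest to NC. The log2 difference was -0.97 (SE 0.28, 95% interval -1.64 to -0.29; adjusted p in limma 0.195), and it was -0.38 with replicate 1 as the sole TNF-α library and -0.58 after the correction for GC content and length.

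The promoters of CROT and ABCD3 are shown as those of the members with the smallest p and the largest difference in log2(FPKM + 1). The 250 bases upstream of the RefSeq start site in GRCh38.p14 are given on the plus strand, 5′ to 3′, from chr7:87345414-87345663 for CROT and chr1:94418139-94418388 for ABCD3. Capitals mark the letters of a GC box, searched as GGGCGG on both strands, and of a CCAAT box, searched as CCAAT on both strands.
CROT: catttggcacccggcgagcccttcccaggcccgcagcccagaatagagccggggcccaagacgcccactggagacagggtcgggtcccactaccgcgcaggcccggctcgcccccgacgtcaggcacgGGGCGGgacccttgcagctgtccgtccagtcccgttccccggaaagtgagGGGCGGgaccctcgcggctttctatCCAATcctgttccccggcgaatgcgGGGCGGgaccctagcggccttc
ABCD3: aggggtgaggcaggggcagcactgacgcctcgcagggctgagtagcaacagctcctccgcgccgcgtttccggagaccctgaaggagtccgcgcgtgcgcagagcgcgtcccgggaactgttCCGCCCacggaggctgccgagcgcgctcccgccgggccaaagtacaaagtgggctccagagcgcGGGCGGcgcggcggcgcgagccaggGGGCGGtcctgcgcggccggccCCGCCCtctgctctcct

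CROT held 3 GC boxes and 1 CCAAT box in a window of 70.8% GC, and ABCD3 held 4 GC boxes in a window of 74.4% GC. CPT1A, also lower in all 3 TNF-α libraries, held no GC box in a window of 44.4% GC, and ACADSB held 3 in a window of 65.6% GC. A RefSeq promoter was matched for 28 of the 36 members, with a median GC content of 67.4%, against 58.0% over all 27305 promoters. The GC box letters were present in 23 of the 28, or 82.1%, against 42.3% of all promoters. The CCAAT letters were present in 6 of 28, or 21.4%, against 33.0%. AGGTCA, the nuclear receptor half-site, was in 0 of 28 against 12.1%, and the kappa-B consensus was in 0 of 28 against 5.05%, on both strands of the same 250 bases. The shares over all promoters take in genes not tested here, and shares over the promoters of the tested genes alone were not computed. These are matches of letters and not binding sites. The bases just after the RefSeq start were found in a GENCODE transcript for 24 of the 28, CROT among them and ABCD3 not, and the PPARGC1A start lies outside the gene span used for its FPKM.

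Among the other peroxisomal genes, HSD17B4 encodes the D-bifunctional protein, which hydrates and then oxidises the chain. HSD17B4 (ENSG00000133835, GRCh38 chr5:119452443-119637199) had 7.33, 6.78 and 6.94 FPKM in NC and 6.10, 4.31 and 4.73 FPKM in TNF-α, without overlap. Its log2 difference was -0.42 (SE 0.15, 95% interval -0.77 to -0.06; adjusted p in limma 0.195), and after the correction for GC content and length it was 0.026. SCP2, the peroxisomal thiolase of branched chains that also yields sterol carrier protein, had 6.24, 6.68 and 5.84 FPKM in NC and 5.80, 4.48 and 5.72 FPKM in TNF-α. ACAA1, the straight-chain thiolase, had 7.598, 7.43 and 7.50 FPKM against 6.86, 14.6 and 12.2 FPKM, with TNF-α replicates on both sides of NC. CRAT, the carnitine acetyltransferase, and ACOX3, a branched-chain acyl-CoA oxidase, had log2 differences of 0.10 and -0.01. All 7 tested members of the peroxisomal list were under the NC range in TNF-α replicate 1. By the group means 5 of the 7 were lower, with differences from -0.97 to 0.46, but after the correction for GC content and length 3 of the 7 were higher. DECR2, also peroxisomal, and ECI2, an isomerase also found in peroxisomes, are listed with the auxiliary enzymes and are not among the 7. Their differences were 0.71 and 0.60. EHHADH, the L-bifunctional enzyme, ACOX2, the bile-acid branch oxidase, and ABCD2, a very-long-chain transporter, were too low to be tested. EHHADH had 1.12, 0.824 and 1.00 FPKM in NC and 0.947, 0.575 and 0.596 FPKM in TNF-α. ACOX2 had 0.337, 0.371 and 0.549 FPKM in NC and 0.411, 0.880 and 0.726 FPKM in TNF-α, so that EHHADH lay lower and ACOX2 higher in TNF-α replicates 2 and 3. ABCD2 had 4 to 12 reads in 5 libraries and was listed at 0 in TNF-α replicate 3.

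**Figure D3:**
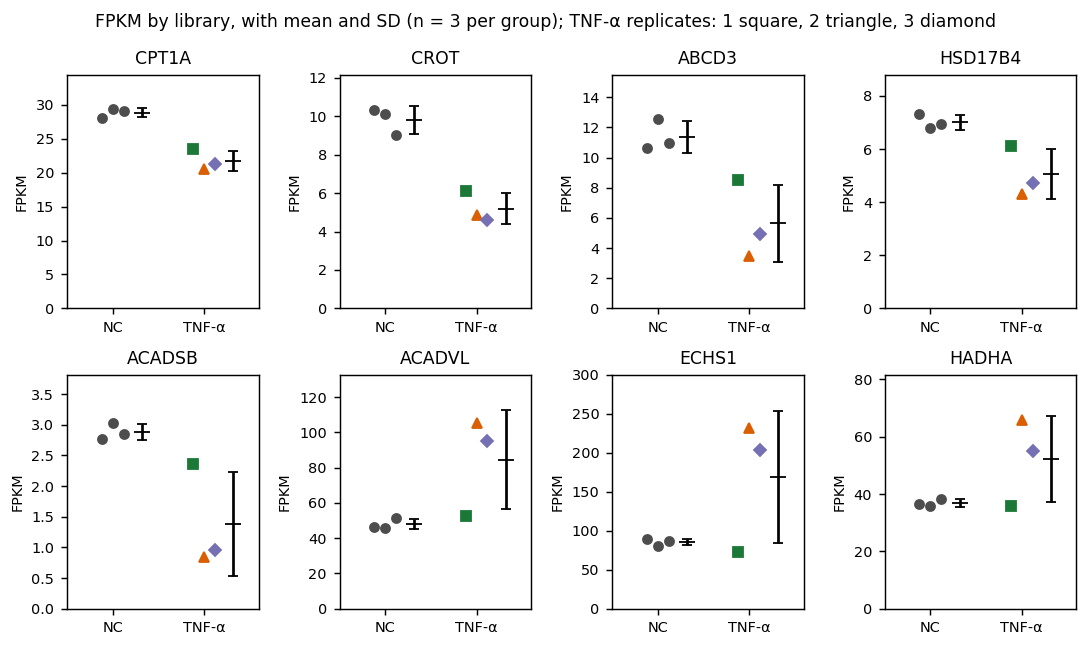
FPKM of 8 members in each library, with the mean and SD of each group (n = 3) beside the points. CPT1A, CROT, ABCD3, HSD17B4 and ACADSB lie lower in every TNF-α library, ACADVL lies higher in every one, and for ECHS1 and HADHA only replicates 2 and 3 lie above all NC libraries.

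Among the tested genes of the carnitine shuttle, the groups were apart for the entry enzyme CPT1A and the carnitine importer SLC22A5. CPT1A (ENSG00000110090, GRCh38 chr11:68754620-68844410) had 28.1, 29.4 and 28.98 FPKM in NC and 23.4, 20.5 and 21.2 FPKM in TNF-α. The TNF-α libraries lay close to one another, all below NC. The log2 difference was -0.40 (SE 0.13, 95% interval -0.70 to -0.09; adjusted p in limma 0.195), with the same direction under every setting tried, from -0.90 to -0.29. CPT1C, the form of the neuronal endoplasmic reticulum, had 3.52, 3.0004 and 4.40 FPKM against 3.24, 5.49 and 4.63 FPKM. CPT1A made up 86.7% to 90.6% of the summed FPKM of the CPT1 genes in NC, and 87.5%, 78.6% and 81.8% in TNF-α replicates 1, 2 and 3. CPT1B, the muscle form, was not tested. It had at most 12 reads in a library, with every TNF-α library above every NC library. Since its reads are few and 66.4% of its exonic length is shared with a readthrough gene, its level is uncertain.

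CPT2, the inner membrane partner of CPT1A, did not separate the groups. CPT2 (ENSG00000157184, GRCh38 chr1:53196429-53214197) had 1.01, 1.09 and 1.19 FPKM in NC and 1.146, 1.23 and 1.53 FPKM in TNF-α, with a log2 difference of 0.13 (95% interval -0.17 to 0.43; adjusted p in limma 0.415). SLC25A20, the carnitine-acylcarnitine translocase, had 11.8, 10.7 and 11.7 FPKM in NC and 9.12, 16.3 and 15.7 FPKM in TNF-α, below NC in replicate 1 and above it in the others. SLC22A5, the plasma membrane carnitine transporter OCTN2, had 1.62, 1.38 and 1.34 FPKM in NC and 1.28, 0.950 and 0.808 FPKM in TNF-α, with a log2 difference of -0.29 (95% interval -0.62 to 0.04). Its groups did not overlap, with replicate 1 just under the lowest NC library, and after the correction for GC content and length the difference was 0.13. On the TPM scale, where the median of all genes was -0.42, CPT1C (-0.21), CPT2 (-0.20) and SLC25A20 (-0.27) lay above that median and CPT1A and SLC22A5 below it.

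The acyl-CoA dehydrogenases, which take the opening step of each round for chains of different length, went both ways. ACADVL (ENSG00000072778, GRCh38 chr17:7217125-7225273) had 46.7, 46.0 and 51.5 FPKM in NC and 52.6, 106 and 95.3 FPKM in TNF-α. Replicate 1 lay just above the highest NC library, and replicates 2 and 3 far above it. The log2 difference was 0.74 (SE 0.28, 95% interval 0.06 to 1.42; adjusted p in limma 0.195), it was 0.25 on the TPM scale, and it was 0.13 with replicate 1 as the sole TNF-α library. ACADSB, the dehydrogenase of short branched chains from isoleucine breakdown (ENSG00000196177, GRCh38 chr10:123008979-123058311), had 2.76, 3.02 and 2.85 FPKM in NC and 2.36, 0.845 and 0.955 FPKM in TNF-α. Here too replicate 1 was the library nearest to NC, and the groups did not overlap. The log2 difference was -0.75 (SE 0.24, 95% interval -1.35 to -0.16; adjusted p in limma 0.195).

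ACADS, the short-chain enzyme, had 2.03, 2.25 and 2.57 FPKM in NC and 1.88, 8.16 and 6.03 FPKM in TNF-α. ACADM, the medium-chain enzyme, had 16.7, 16.9 and 14.9 FPKM in NC and 15.6, 10.6 and 12.01 FPKM in TNF-α. The ratio of ACADS to ACADM was 0.122 to 0.173 in NC and 0.120, 0.773 and 0.502 in TNF-α replicates 1, 2 and 3. The log2 differences of ACADS and ACADM were 0.80 and -0.34, and after the correction for GC content and length 0.10 and -0.17. The ratio of ACADVL to ACADM was 2.71 to 3.45 in NC, while the TNF-α libraries had 3.37, 10.01 and 7.93. After the same correction the log2 difference of ACADVL was 0.38. ACAD9, which also helps to assemble respiratory complex I, had a log2 difference of 0.40, and ACADL, the long-chain enzyme, had at most 29 reads in a library and was not tested.

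Among the later mitochondrial steps, the TNF-α libraries of the most abundant gene lay on both sides of NC. ECHS1 (ENSG00000127884, GRCh38 chr10:133362480-133373689) had 89.6, 81.1 and 86.5 FPKM in NC and 72.9, 232 and 204 FPKM in TNF-α. Replicate 1 was under the NC range and the other TNF-α libraries were over it, and the log2 difference of 0.81 had a 95% interval of -0.26 to 1.88 (adjusted p in limma 0.215). HADHA (ENSG00000084754, GRCh38 chr2:26190635-26244726) had 36.6, 35.8 and 38.4 FPKM in NC and 35.97, 65.7 and 54.9 FPKM in TNF-α, with a log2 difference of 0.45 (SE 0.24, 95% interval -0.13 to 1.02; adjusted p in limma 0.210). That difference was -0.048 on the TPM scale, where the median of all genes was -0.42, and -0.014 after quantile normalization. It was 0.19 by limma-voom on reads and 0.31 after the correction for GC content and length.

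HADHB, the thiolase subunit of the same trifunctional protein, lies beside HADHA at GRCh38 chr2:26243170-26290468 on the other strand. HADHB had 16.003, 14.9 and 14.8 FPKM in NC and 16.5, 19.2 and 18.7 FPKM in TNF-α, without overlap. Its log2 difference was 0.24, and -0.25 on the TPM scale, where the median of all genes was -0.42. The ratio of HADHA to HADHB was 2.29 to 2.60 in NC, while the TNF-α libraries had 2.18, 3.42 and 2.94. The ratio was thus highest in TNF-α replicates 2 and 3. HADH, the hydroxyacyl-CoA dehydrogenase of short and medium chains, had 2.64, 2.73 and 2.53 FPKM against 2.23, 2.52 and 2.33 FPKM. The thiolases ACAA2 and ACAT1 had log2 differences of 0.27 and 0.31. They were -0.11 and -0.16 on the TPM scale, where the median of all genes was -0.42. After the correction for GC content and length they were 0.31 and 0.52.

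The 4 auxiliary enzymes, which shift or remove the double bonds of unsaturated fatty acids, had similar differences between the group means of FPKM. ECI1 and ECI2, the enoyl-CoA isomerases, and DECR1 and DECR2, the mitochondrial and peroxisomal dienoyl-CoA reductases, had log2 differences of 0.65, 0.60, 0.65 and 0.71. On the TPM scale these were 0.17, 0.17, 0.21 and 0.40, and after the correction for GC content and length 0.038, 0.63, 0.57 and 0.23. With replicate 1 as the sole TNF-α library they were -0.34, -0.22, -0.0053 and -0.13. None passed, and none kept its groups apart. DECR2 had 1.67, 1.73 and 1.55 FPKM in NC and 1.43, 5.20 and 4.38 FPKM in TNF-α, so that its higher mean came from replicates 2 and 3, as it did for the others. ECI2 shares 29.8% and DECR2 14.1% of their exonic length with other genes, and since the labels do not say whether strand was kept, their levels are uncertain to that extent. The same holds for ACAA1 (21.2%), SCP2 (20.7%), ETFDH (13.8%), CPT2 (11.96%) and ACAD9 (10.5%).

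The electron transfer flavoprotein passes electrons from the dehydrogenases to ETFDH and so to ubiquinone. Its subunit genes ETFA and ETFB had 17.6, 16.8 and 16.6 FPKM and 1.70, 1.56 and 1.77 FPKM in NC, and 14.7, 30.2 and 27.6 FPKM and 1.27, 5.52 and 4.40 FPKM in TNF-α. Both lay below NC in replicate 1 and above it in replicates 2 and 3. The ratio of ETFA to ETFB was 9.37 to 10.7 in NC, while the TNF-α libraries had 11.5, 5.47 and 6.27. The size of this ratio depends on the exonic lengths that FPKM divides by. After the correction for GC content and length, the log2 differences of ETFA and ETFB were 0.52 and 0.75. ETFDH had a log2 difference of 0.12, which was -0.30 on the TPM scale, where the median of all genes was -0.42. After the correction for GC content and length the difference of ETFDH was 0.15.

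PPARGC1A encodes PGC-1α, a coactivator known to drive mitochondrial biogenesis and oxidation genes, and it was too low to be tested. PPARGC1A (ENSG00000109819, GRCh38 chr4:23755041-23904089) had 0.420, 0.446 and 0.464 FPKM in NC and 0.306, 0.149 and 0.133 FPKM in TNF-α. These values came from 165, 159 and 162 reads in NC and 107, 42 and 35 reads in TNF-α, and the groups did not overlap. The mean was 0.443 ± 0.0221 FPKM in NC and 0.196 ± 0.0959 FPKM in TNF-α (SD, n = 3).

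**Figure D4:**
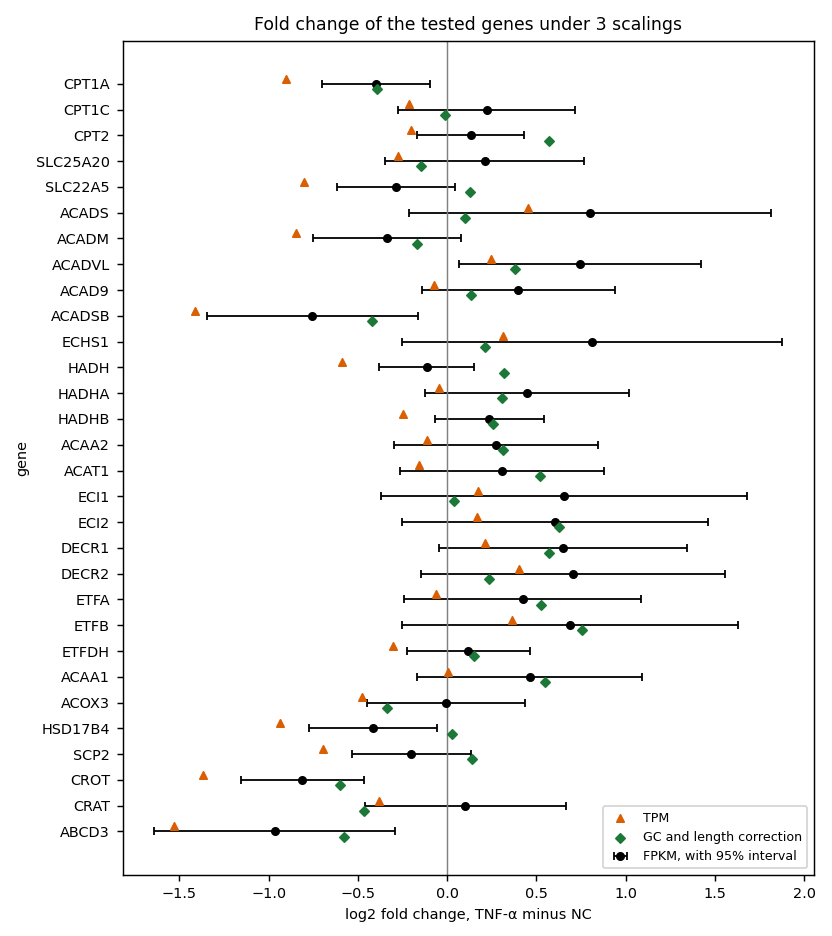
Log2 difference in FPKM + 1 between TNF-α and NC for each tested member, with its 95% interval from limma (black circles, FPKM), beside the difference on the TPM scale (triangles) and after the correction for GC content and length (diamonds). Intervals of CPT1A, ACADVL, ACADSB, HSD17B4, CROT and ABCD3 leave out 0 before adjustment, and no adjusted p on this scale is under 0.05.

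The direction of the members in TNF-α replicates 2 and 3 went with base composition and length. Across the 30 tested members, the difference of replicate 2 from the NC mean had a Pearson r of 0.66 with the GC content of the longest transcript and -0.56 with exonic length. In replicate 3 the values were 0.63 and -0.54, and in replicate 1 they were -0.06 and 0.14. These are descriptions across genes, which share their library and are not independent replicates. The same r over all genes tested was not computed, so these values cannot show whether the relation is particular to the members. The 19 members above NC in both replicates had a median GC content of 49.4%, and the 9 members below had 41.0%, against 47.9% for all genes tested. The part of GC content and length in the differences of single genes was not tested.

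**Figure D5:**
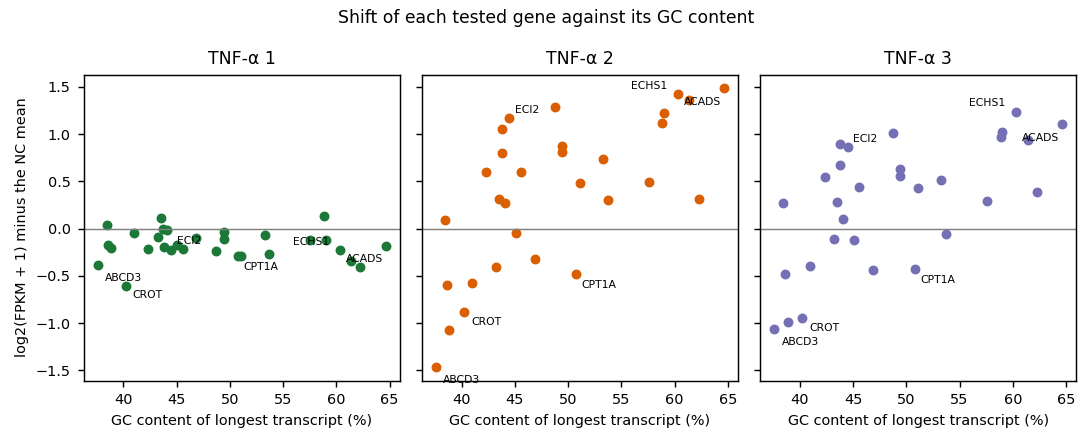
Difference of log2(FPKM + 1) from the NC mean for each of the 30 tested members against the GC content of its longest transcript, 1 panel per TNF-α library. Points climb with GC content in replicates 2 and 3 (r of 0.66 and 0.63) and stay flat in replicate 1 (r of -0.06).

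Genes around the pathway were also without calls. Of 69 further genes in 5 lists, 54 were tested, and none passed. By the group means 30 were higher and 24 lower, where 53.0% of all genes tested were higher, and their median log2 difference was 0.04. On the TPM scale 8 of the 54 were higher, and after the correction for GC content and length 23 were. At an unadjusted p under 0.05 there were 11 of 54, where 24.2% of all genes tested were. The regulator with the smallest p was RXRA, the retinoid receptor that pairs with many lipid-sensing nuclear receptors, at 5.21, 5.75 and 5.54 FPKM in NC and 3.36, 3.28 and 3.46 FPKM in TNF-α. All TNF-α libraries of RXRA lay well below NC, with a log2 difference of -0.57 and an adjusted p in limma of 0.0968. PPARD, a nuclear receptor for fatty acids, had a difference of 0.36, which was -0.13 on the TPM scale, above the median of all genes there (-0.42).

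Of the genes that activate and carry fatty acids, 6 of 11 were higher and 5 lower. ACSL3 and ACSL5, long-chain acyl-CoA synthetases, differed between the groups in opposite directions by their means, with a log2 difference of -0.55 for ACSL3 (adjusted p in limma 0.195). ACSL5 was at 0.616 ± 0.0483 FPKM in NC and 1.38 ± 0.193 FPKM in TNF-α (SD, n = 3), and since it reached 1 FPKM only in the TNF-α libraries no test is given. Of the other oxidation enzymes, 8 of 14 were higher, with HSD17B10 at 0.95 and HSDL2 at -0.32. Among 4 ketone body enzymes, OXCT1, which activates acetoacetate for use as a fuel, had a difference of -0.40. BDH1, the hydroxybutyrate dehydrogenase, had 0.24, and -0.17 on the TPM scale, above the median of all genes there (-0.42). Of 15 peroxins, which build the peroxisome, 9 were higher and 6 lower by the group means.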

How the data were processed

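Poly(A) RNA of 6 U251 cultures was sequenced from a kit taken not to mark strand, since the labels do not say. The authors deposited FPKM per gene, with no statement here of which tool made which step; the submitters' processing notes name HISAT2 2.0.5, StringTie 1.3.3b and featureCounts 1.5.0. FPKM times gene length gave whole reads in every library (within 0.001 of a read). The table also holds 6 columns of samples not described here, which were not used. Genes with at least 1 FPKM in at least 3 of 6 libraries (12136) were tested in limma 3.58.1 (R 4.3.3) on log2(FPKM + 1), with a mean-variance trend, two-sided, with Benjamini-Hochberg adjustment over all genes tested and a threshold of 0.05. Fold changes on this scale understate low genes. The labels call the replicates independent biological replicates. Full values are given for members with an unadjusted p under 0.05 and groups apart, and always for CPT1A, CPT2, ACADVL, HADHA and PPARGC1A; of each further list, up to 2 genes with the smallest p are named (single peroxins are not reported here), and other genes were named after their values were seen. The members and lists were chosen with earlier results of these data known. Settings tried were other pseudocounts, filters, TPM, quantile normalization, median centring, corrections for length and GC content, limma options, limma-voom on the recovered reads, a replicate block and leaving out libraries. The fits were tested on counts simulated from the NC means. Those counts had no library set apart and no shift with GC content or length, unlike TNF-α replicates 2 and 3 here. Promoters came from RefSeq, GRCh38.p14.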

Additional observations from a re-analysis of the deposited data

How the results depend on the processing

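No member passed in most settings. The count was 1 under quantile normalization, 1 under the correction for GC content and length and 1 without both TNF-α replicates 2 and 3, the last 2 settings having been chosen after seeing the data. Leaving out 1 library gave 0 to 25 members, the 25 coming without TNF-α replicate 1. The members' median log2 difference was -0.21 on the TPM scale and -0.18 without both TNF-α replicates 2 and 3. It was -0.0038 under limma-voom, where the median of all genes was -0.21, with 15 of 30 members higher. Under the correction for GC content and length the members' median was 0.14, with 21 of 30 members higher. Of the 30 members, CPT1A, ACADM, ACADVL, ACADSB, CROT and ABCD3 (6) kept their direction under every setting. Another 8 reversed only without both TNF-α replicates 2 and 3: ACADS (-0.19), ECHS1 (-0.23), ECI1 (-0.34), ECI2 (-0.22), DECR1 (-0.0053), DECR2 (-0.13), ETFB (-0.24) and ACAA1 (-0.11). On the TPM scale the difference reversed for CPT1C (-0.21), CPT2 (-0.20), SLC25A20 (-0.27), ACAD9 (-0.075), HADHA (-0.048), HADHB (-0.25), ACAA2 (-0.11), ACAT1 (-0.16), ETFA (-0.062), ETFDH (-0.30) and CRAT (-0.38). Each of these lay above the median of all genes on that scale, which was -0.42. Under limma-voom on recovered reads the difference reversed for CPT2 (-0.026), SLC25A20 (-0.042), HADHB (-0.017), ETFDH (-0.10) and CRAT (-0.16), each above the median of all genes there (-0.21). Under quantile normalization the difference reversed for HADH (0.0098), HADHA (-0.014) and ACOX3 (0.075). Under length correction it reversed for SLC25A20 (-0.18), SLC22A5 (0.087), HADH (0.24), ETFDH (-0.011), SCP2 (0.012) and CRAT (-0.13). Under the correction for GC content and length it reversed for CPT1C (-0.012), SLC25A20 (-0.15), SLC22A5 (0.13), HADH (0.32), HSD17B4 (0.026), SCP2 (0.14) and CRAT (-0.47). Leaving out 1 library gave -0.16 to 0.13 for ACOX3 and -0.043 to 0.35 for CRAT. The cause was not tested.

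Same-numbered libraries did not deviate together (r of -0.01, -0.18 and 0.12), and differently numbered ones had r of -0.16 to 0.18. Since TNF-α replicates 2 and 3 stood apart from replicate 1, these values cannot show whether the numbers pair the samples. With a replicate block, 24 of all genes passed in place of 123, 0 members passed and the members' median was 0.23.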
